A study of Mus musculus with 6 samples.

Results

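Olfactory receptor gene clusters are long runs of related genes that encode the odorant receptors of the nose. The CTCF sites described here are the peaks that lay wholly inside 5 windows of the mm9 genome placed over such clusters, of 14.1 Mb in all. The windows were chromosome 2 from 85.0 to 90.3 Mb, chromosome 7 from 113.6 to 115.9 Mb, chromosome 9 from 18.6 to 20.2 Mb (called proximal here) and from 37.5 to 40.2 Mb (distal), and chromosome 19 from 12.0 to 14.2 Mb. They held 122 of the 40271 wild-type peaks (0.303%), 58 of the 29769 peaks of clone D (0.195%) and 59 of the 32308 peaks of clone C8 (0.183%). Joined by overlap, these peaks formed 141 of the 48367 regions of the series. No mm9 gene annotation was used here, so the windows rest on their stated positions and the share of each window that is receptor gene was not measured.

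CTCF reads a long DNA motif with its zinc fingers and, together with cohesin, anchors chromatin loops and marks borders between chromatin domains. BRD2 belongs to the BET family, whose bromodomains bind acetylated histones. Olfactory receptor genes are among the largest gene families of the mouse. An olfactory neuron is known to express a single one of them, and the clusters are known to be silent, AT-rich and packed in heterochromatin in most other tissues, blood cells included.

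The study measured CTCF occupancy by chromatin immunoprecipitation and sequencing (ChIP-seq) and asked whether it differs in cells without BRD2. The libraries were all from the mouse erythroblast line G1E-ER4, which is null for GATA1 and carries GATA1 as a fusion with the estrogen receptor (GATA1-ER). Estradiol at 100 nM for 24 hours, given to every sample, activates the fusion protein and starts erythroid differentiation. The groups were G1E-ER4 cells with wild-type Brd2, the sub-line D_Brd2KO and the sub-line C8_Brd2KO, both made with CRISPR/Cas9 and without detectable BRD2. Each sub-line is a single clone, so the loss of BRD2 and clonal origin cannot be told apart within 1 clone. Each group had 1 CTCF library and 1 input library, and the 3 inputs were not used here. With 1 library per group there was no test between groups, no standard deviation and no p-value, and the 2 clones side by side give the only view of spread. The deposited lists give no read totals, so the depth is unknown, and absence from a list means only that no peak was called there.

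Promoters of receptor genes on the chromosomes of the windows were searched for the CTCF core motif, written with ambiguous letters and named only. This motif was chosen after a looser form had been searched, with few receptor promoters matched. Its counts are therefore a description and hold for this form only. RefSeq's GRCm38.p6 gene table lists 941 of its 1428 olfactory receptor genes, pseudogenes included, on chromosomes 2, 7, 9 and 19. RefSeq promoter sequences (250 bases before to 50 bases after the start site) were matched by symbol for 620 of the 941. The genes were taken from the whole chromosomes, and which of them lie in the windows was not determined. The core of 12 letters, on both strands, was found in 0 of 623 promoters of these 620 genes (exact 95% interval up to 0.590%). It was found in 183 of all 32851 promoters of the table (0.557%), a share inside that interval. Among promoters of other genes on the same chromosomes it was found in 67 of 7975 (0.840%, 0.652 to 1.07). The promoters of the receptor genes were also poorer in G and C, with a median of 34.3% against 54.0% for those other genes. Among promoters with under 40% G and C, the core was found in 0 of 522 receptor promoters (up to 0.704%) and 1 of 603 others (0.166%, 0.00420 to 0.920), so no difference was detectable there. These sequences are from another genome build than the peaks, and the bases under the peaks were not analysed here.

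CTCF peaks were sparse in the windows in every list. Wild type had 8.65 peaks per Mb in the 5 windows, against 20.6 per Mb in flanks as long as the window on each side. The ratio of these densities was 0.420 (exact 95% interval 0.343 to 0.511, counting error only). Clone D had 4.11 peaks per Mb in the windows and 15.7 in the flanks, a ratio of 0.262 (0.196 to 0.345). Clone C8 had 4.18 and 16.8 peaks per Mb, a ratio of 0.249 (0.187 to 0.327). Peaks of a list share a library, so these intervals describe counting and are no test, and no gene of the flanks was checked.

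**Figure D1:**
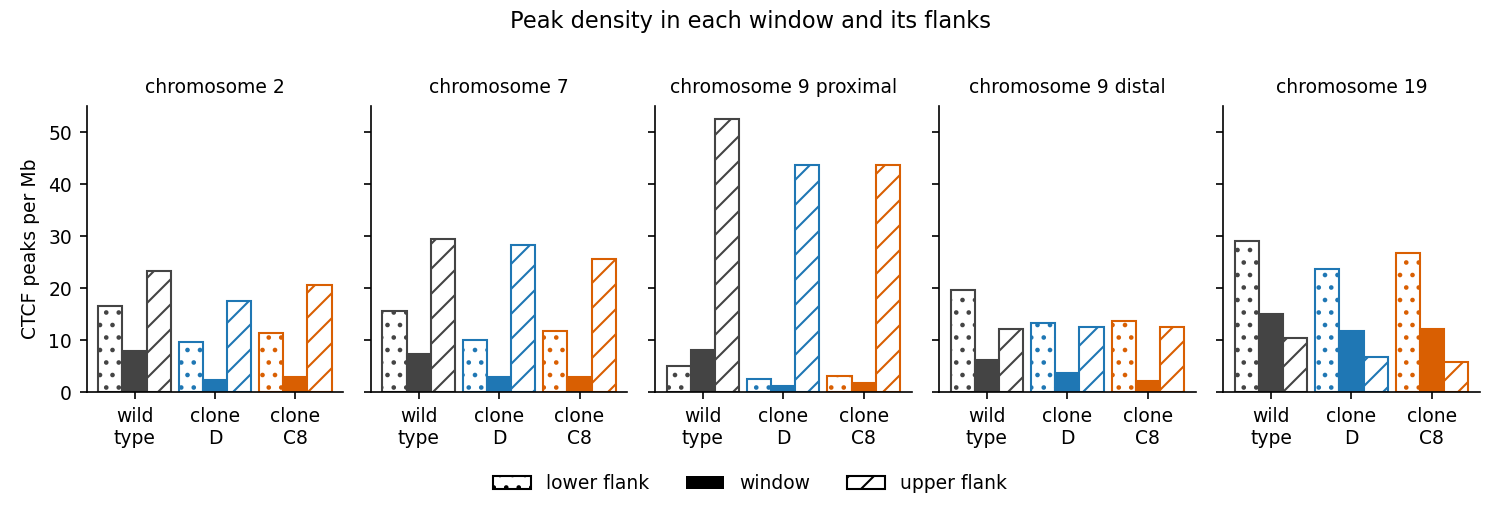
CTCF peaks per Mb (vertical axis) in each window (filled bars) and in the flanks of equal length below and above it (dotted and hatched bars), for the 3 lists. The windows of chromosomes 2 and 7 and the distal window of chromosome 9 are below both flanks in each list, while the window of chromosome 19 lies between its flanks.

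The sparsest of the 5 windows were those of chromosomes 2, 7 and 9. On chromosome 2, wild type had 42 peaks (7.92 per Mb), clone D 13 (2.45) and clone C8 16 (3.02), against flank means of 20.0, 13.6 and 16.0 per Mb. The ratios to the flanks were 0.396, 0.181 and 0.188. Of 32 other windows of 5.3 Mb laid end to end along chromosome 2, 6 had fewer wild-type peaks, 1 had fewer clone D peaks and 1 had fewer clone C8 peaks. On chromosome 7, the counts were 17, 7 and 7 peaks (7.39, 3.04 and 3.04 per Mb), with flank means of 22.6, 19.1 and 18.7 per Mb. Its upper flank was denser than its lower flank, with 29.6 against 15.7 peaks per Mb in wild type. Of 63 other windows of 2.3 Mb along chromosome 7, 10, 13 and 9 had fewer peaks in wild type, clone D and clone C8. In the distal window of chromosome 9, the counts were 17, 10 and 6 peaks (6.30, 3.70 and 2.22 per Mb), with flank means of 15.9, 13.0 and 13.1 per Mb. Of 43 other windows of 2.7 Mb along chromosome 9, 2, 4 and 1 had fewer peaks in wild type, clone D and clone C8.

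The proximal window of chromosome 9 had the fewest clone peaks, with 2 in clone D (1.25 per Mb) and 3 in clone C8 (1.88 per Mb) against 13 in wild type (8.13 per Mb). None of 73 other windows of 1.6 Mb along chromosome 9 had fewer clone D peaks, 3 had fewer clone C8 peaks and 15 had fewer wild-type peaks. Its flanks were unlike each other. The upper flank had 84, 70 and 70 peaks in wild type, clone D and clone C8, the densest flank of all (52.5, 43.8 and 43.8 per Mb). The lower flank had 8, 4 and 5 peaks (5.00, 2.50 and 3.13 per Mb), which in wild type is fewer than in the window.

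The window of chromosome 19 was the exception. It held 33 peaks in wild type, 26 in D and 27 in C8 (15.0, 11.8 and 12.3 per Mb), and its ratios to the flanks of 0.759, 0.776 and 0.750 had intervals that include 1 in every list (0.492 to 1.14, 0.474 to 1.24 and 0.463 to 1.18). Among 25 other windows of 2.2 Mb along the chromosome, 12, 11 and 12 had fewer peaks in wild type, clone D and clone C8. Its lower flank had 29.1, 23.6 and 26.8 peaks per Mb and its upper flank 10.5, 6.82 and 5.91, fewer than the window itself. Without this window, the ratios of the other 4 together were 0.170 in clone D and 0.159 in clone C8, over 1.5 times lower than with it. The wild-type ratio was 0.360 without it and 0.420 with it.

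**Figure D2:**
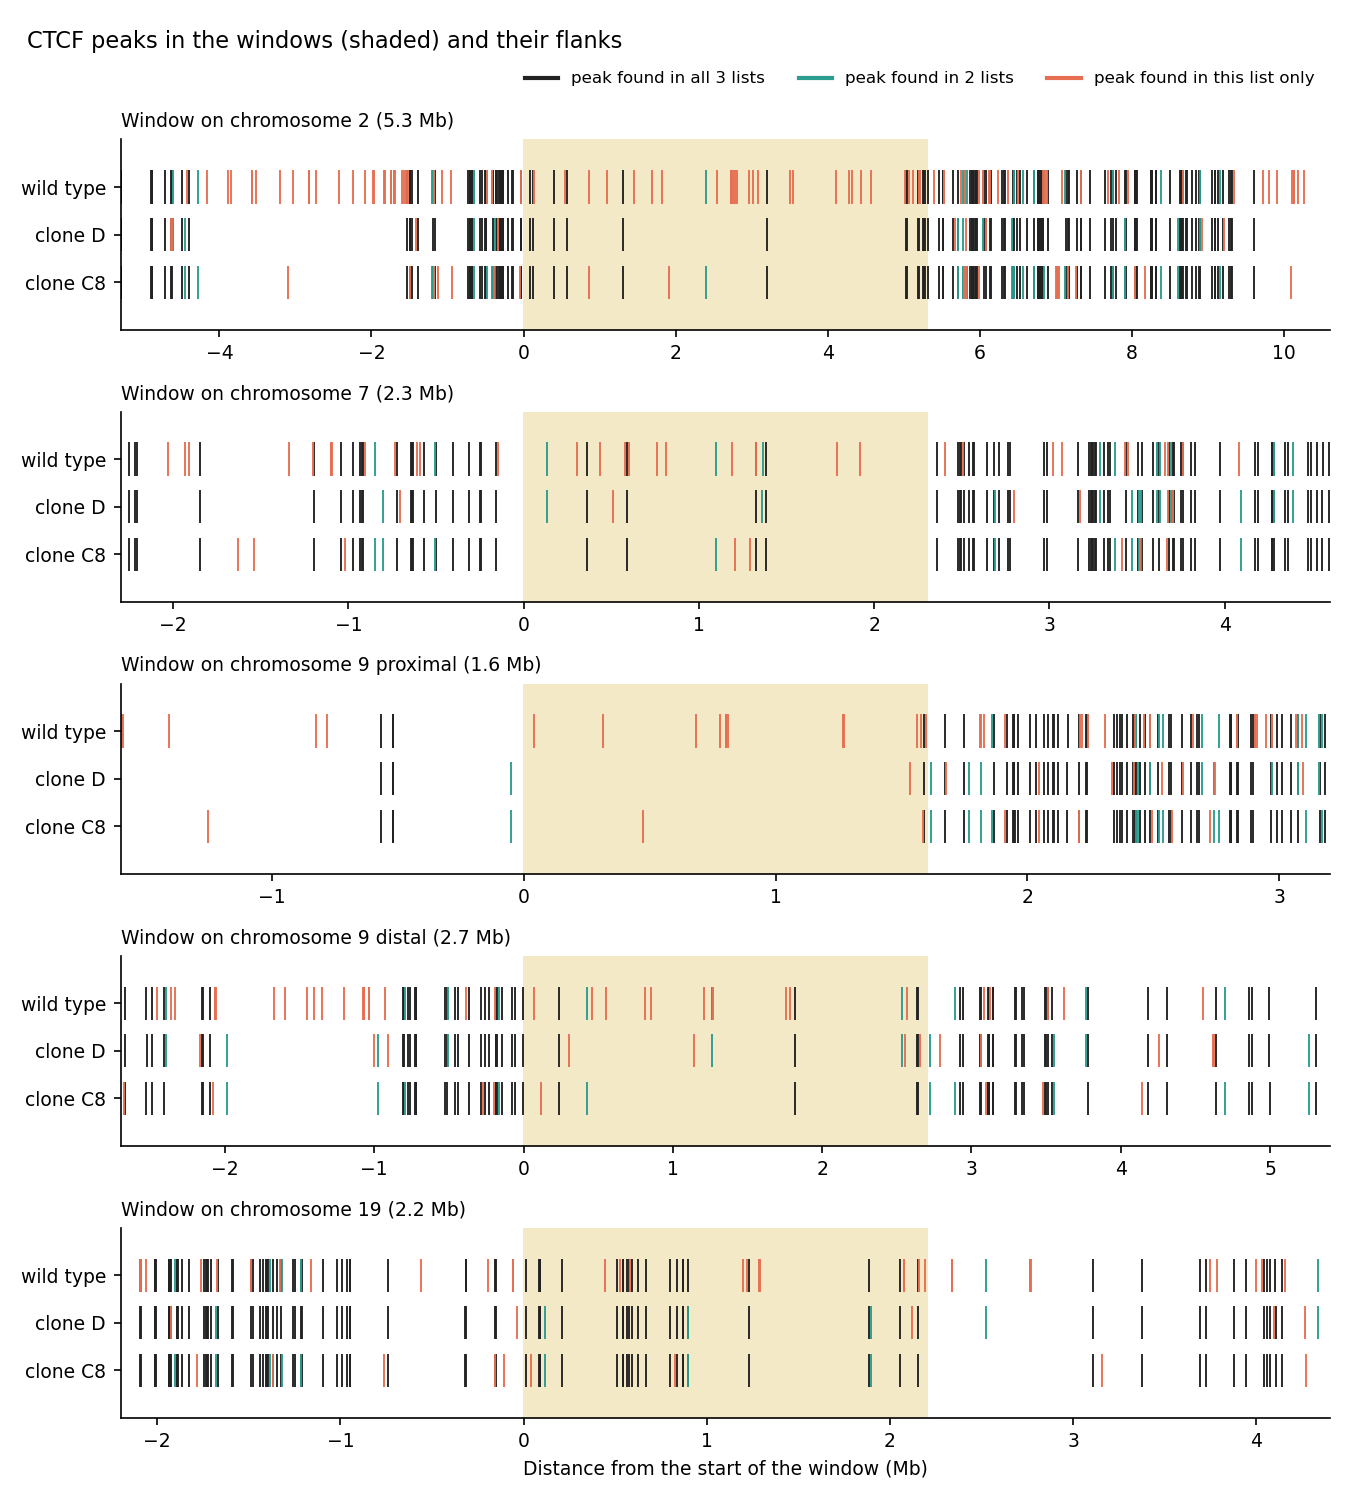
Position of every CTCF peak, as distance from the start of the window in Mb (horizontal axis), in the 5 windows (shaded) and their flanks, with 1 row for each list. Black lines are peaks found in all 3 lists, green lines peaks found in 2 lists and orange lines peaks of 1 list only. The middle of the chromosome 2 window holds mostly orange wild-type lines, and the black lines of the chromosome 19 window sit mainly in its first 1.1 Mb.

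Long stretches had no site common to the 3 lists. On chromosome 2, neighbouring common sites were 1891 kb apart (86305401 to 88196240) and then 1830 kb apart (88196997 to 90027071), with 1 common site between these stretches. The first stretch held 14 regions, of which 12 were called in wild type only, none in clone D and 2 in clone C8. The second held 8 regions, all called in wild type only. In both stretches the enrichment of wild-type-only peaks was at most 13.88, below the wild-type median of 22.7. On proximal chromosome 9, 1590 kb from the window's start to position 20189514 had no common site, and on distal chromosome 9 the longest such stretch was 1576 kb (37740526 to 39316484). On chromosome 7 the last 914 kb of the window had no peak in either clone and 2 in wild type.

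Common sites were not spread evenly. On chromosome 2, 9 of the 13 common sites lay within 300 kb of an edge of the window, against 6 of the 28 wild-type-only peaks. On chromosome 19, 18 of 22 common sites lay in the first 1.1 Mb. Within 300 kb of an edge, chromosome 19 had 7 of 22 common sites and 4 of 11 wild-type-only peaks. Chromosome 7 had 0 of 4 and 0 of 10. Proximal chromosome 9 had 1 of 1 and 4 of 12, and distal chromosome 9 had 3 of 4 and 2 of 10. Over the 5 windows, 20 of 44 common sites and 16 of 71 wild-type-only peaks were within 300 kb of an edge. These counts were not scaled by the share of window length near an edge. At the edges themselves, 12 wild-type peaks lay inside and 5 outside within 50 kb, against 7 and 7 in clone D and 8 and 7 in clone C8, and no peak of any list crossed an edge.

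The second property of the windows was weak wild-type peaks. Column 7 of the lists holds the authors' fold enrichment of a peak and column 8 its −log10 p, and enrichments are ranked within a list only. The median enrichment of the 122 wild-type peaks was 14.8 (quartiles 11.9 and 27.3), against 25.8 in the flanks and 22.7 in the whole list. The median window peak stood at percentile 26.7 of the wild-type list. In clone D the median was 16.1 against 17.3 in the flanks and 17.4 in the whole list, at percentile 45.1. In clone C8 it was 19.4 against 22.0 and 21.5, at percentile 44.6. Pooled over the windows, the peaks were therefore low within the wild-type list and nearer to the middle within the clone lists. This did not hold in each window. On chromosome 2 the median percentiles in wild type, clone D and clone C8 were 22.5, 73.0 and 52.5. On chromosome 19 they were 52.1, 54.4 and 51.2, and on chromosome 7 38.0, 23.1 and 28.2. Proximal chromosome 9 had 22.5, 8.72 and 10.2, and distal chromosome 9 had 22.5, 18.6 and 39.7.

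Counts past fixed values of column 8 are given side by side, since the unknown depth of each library bears on which peaks pass them. A −log10 p of at least 20, called strong here, was reached by 23 window peaks in wild type, 23 in clone D and 20 in clone C8. Those are 18.9%, 39.7% and 33.9% of the window peaks, where 34.3%, 50.4% and 45.3% of the whole lists reached it. A value of at least 10 was reached by 43, 38 and 36 window peaks, or 35.2%, 65.5% and 61.0%, against 55.8%, 73.8% and 69.4% of the whole lists. Below 10, wild type had 79 peaks in the windows, clone D 20 and clone C8 23. Strong peaks were sparser in the windows than in the flanks by a similar factor in each list, with ratios of 0.198, 0.211 and 0.176. For peaks below 10 the ratio was 0.684 in wild type, 0.331 in clone D and 0.333 in clone C8. Column 9 holds the authors' false discovery rate. It was 0.05 or lower for 32.0% of window peaks in wild type, 89.7% in clone D and 83.1% in clone C8, where the whole lists had 52.7%, 94.8% and 85.4%. With peaks that reached a −log10 p of 10 alone, the wild-type density ratio of windows to flanks was 0.246 in place of 0.420.

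**Figure D3:**
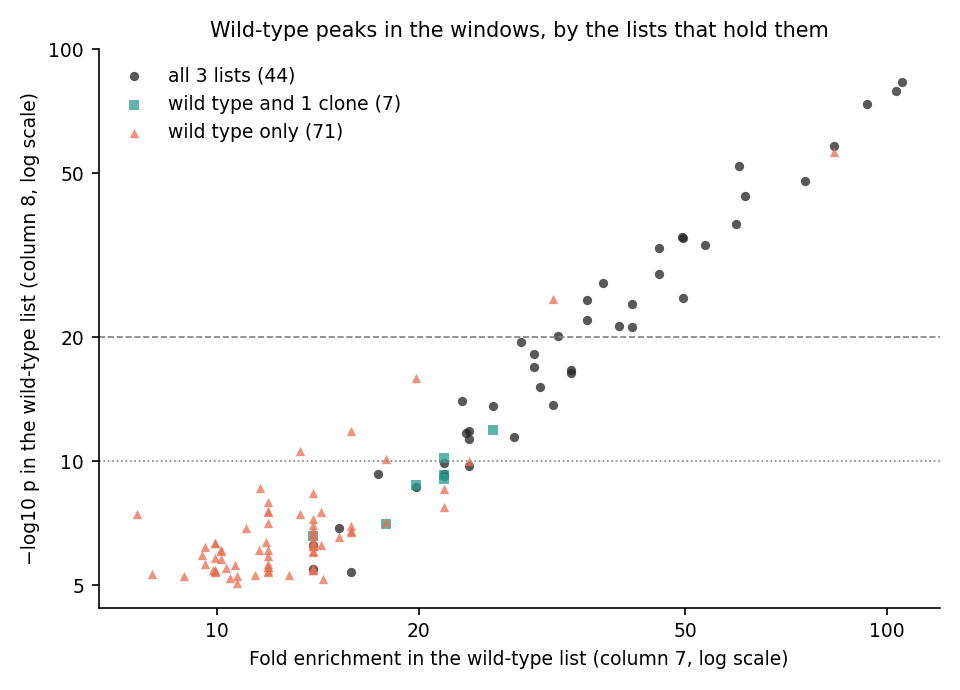
Fold enrichment (horizontal axis, log scale) against −log10 p (vertical axis, log scale) of the 122 wild-type peaks in the windows, each from the authors' columns. Black circles are the 44 peaks found in all 3 lists, green squares the 7 found in 1 clone and orange triangles the 71 found in neither. The dashed line marks a −log10 p of 20 and the dotted line 10, and 2 triangles lie above the dashed line.

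A smaller share of wild-type peaks was found in the clones in the windows than in the whole list. Peaks count as found where they overlap by at least 1 bp. In clone D, 48 of the 122 were found (39.3%, exact 95% interval 30.6 to 48.6), and in C8 47 (38.5%, 29.9 to 47.8), where 63.1% and 65.3% of the whole wild-type list were overlapped. Both clones overlapped 44 (36.1%, 27.6 to 45.3), against 59.8% of the whole list. Neither clone overlapped 71 (58.2%, 48.9 to 67.1), against 31.4% of the whole list. Of the 581 wild-type peaks in the flanks, 66.1% were found in clone D and 69.0% in clone C8. The clone totals differed by 1 peak, and 7 wild-type window peaks were found in 1 clone and not the other. Of the 43 wild-type window peaks that reached a −log10 p of 10, each clone overlapped 35 (81.4%, 66.6 to 91.6), where the whole-list shares were 92.6% in clone D and 94.3% in clone C8. With the clone lists also held to a −log10 p of 10, the window shares were 72.1% and 67.4%.

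Since window peaks were weak in the wild-type list, they were also set beside peaks of equal strength. For this, 10 strength classes with equal numbers of peaks were made from each list by enrichment, from 1 (weakest) to 10. Of the 122 window peaks, 64 were in classes 1 to 3, 29 in classes 4 to 6 and 29 in classes 7 to 10. If each class had the share found outside the windows, 57.2 of the 122 would be overlapped in clone D and 60.1 in clone C8, against 48 and 47 observed. Absent from both clones would be 57.4, against 71. The same sum for the flanks gave 389 in clone D and 401 in clone C8, against 384 and 401 observed.

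In classes 1 to 3, clone D overlapped 5 of 64 window peaks (7.81%, 2.59 to 17.3) and clone C8 4 (6.25%, 1.73 to 15.2), against 15.8% and 18.1% outside the windows. The interval in clone D includes the outside share and that in clone C8 ends below it. Neither clone overlapped any of the 41 window peaks of classes 1 and 2 (exact 95% interval up to 8.60%). Outside the windows the shares of classes 1 and 2 were 7.95% and 14.2% in clone D and 9.57% and 16.2% in C8, which would give 4.19 and 4.92 of the 41. The cut after class 2 was not fixed beforehand. In class 3, clone D overlapped 5 of 23 window peaks (21.7%, against 25.3% outside). Clone C8 overlapped 4 of these 23 (17.4%, against 28.5%). In classes 4 to 6, each clone overlapped 16 of 29 (55.2%, 35.7 to 73.6), against 63.5% and 67.6% outside, both within the interval. In classes 7 to 10, each clone overlapped 27 of 29 (93.1%, 77.2 to 99.2), against 98.3% and 99.0% outside, also within the interval. No test was made of these differences, since the peaks share their libraries. The intervals cover counting error only, so whether an interval holds the outside share is no test.

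**Figure D4:**
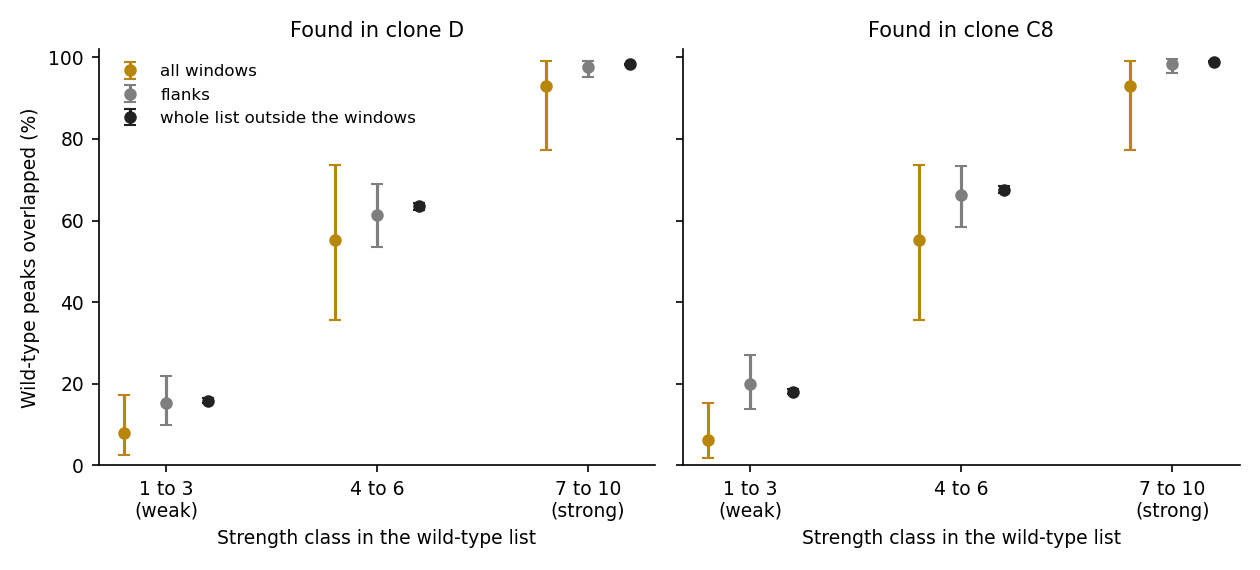
Share of wild-type peaks overlapped in clone D (left) and clone C8 (right), in percent, by strength class of the wild-type list. Points are the windows, their flanks and the whole list outside the windows, and bars are exact 95% binomial intervals, which cover counting error only. In both clones every share is at most 19.9% in classes 1 to 3 and at least 93.1% in classes 7 to 10.

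The windows differed in how many wild-type peaks the clones held. On chromosome 19, 22 of 33 wild-type peaks were found in each clone. On chromosome 2, clone D held 13 of 42 and clone C8 14, and on chromosome 7 clone D held 6 of 17 and clone C8 5. On distal chromosome 9 the counts were 6 and 5 of 17, and on proximal chromosome 9 each clone held 1 of 13. Without the chromosome 19 window, the shares were 29.2% in clone D and 28.1% in clone C8.

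Read from the clones, the windows were closer to the rest of the genome. Of 58 clone D peaks, 48 were found in wild type (82.8%, 70.6 to 91.4), where 85.1% of the whole clone D list were overlapped, as were 47 of 59 peaks of clone C8 (79.7%, 67.2 to 89.0), against 81.4%. Between the clones, 47 of the 58 peaks of D were found in C8 (81.0%, against 87.9%) and 47 of the 59 peaks of C8 in D (79.7%, against 81.3%). Both other lists held 44 of the 58 clone D peaks and 44 of the 59 clone C8 peaks (75.9% and 74.6%, against 80.6% and 74.5%). All 23 strong clone D peaks and all 20 strong clone C8 peaks of the windows were found in both other lists, as were 99.2% and 99.4% of the strong peaks of the whole lists.

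In all, 44 of the 141 regions were called in all 3 lists (31.2%, against 49.5% of the whole series) and 71 in wild type only (50.4%, against 26.2%). Clone D only had 7 regions (4.96%, against 4.7%) and clone C8 only 9 (6.38%, against 7.94%). The clones shared 3 regions that wild type lacked (2.13%, against 4.48%). Wild type shared 4 regions with clone D alone (2.84%, against 2.70%) and 3 with clone C8 alone (2.13%, against 4.54%). The median region was 566 bp wide for sites of all 3 lists and 377 bp for wild-type-only peaks, against 584 and 370 bp in the whole series. Regions of all 3 lists are joined over their peaks, while a wild-type-only region is a single peak. These widths are therefore not like for like.

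The sites common to the 3 lists included the strongest peaks of the windows. The highest wild-type enrichment was at chromosome 2, 90191549 to 90192240, near the upper edge of the window, with 105.07 in wild type, 31.28 in clone D and 55.55 in clone C8. It ranked 298 of 40271, 5366 of 29769 and 1826 of 32308 in these lists. The site at 90034705 to 90035428 had enrichments of 103.09, 33.75 and 65.54, and that at 90269784 to 90270538 had 93.18, 26.34 and 50.39. Another strong site of chromosome 2 (86304711 to 86305400) lay at the start of the long stretch without common sites, with 83.26, 48.23 and 58.37. The percentiles of these 4 sites ran from 97.3 to 99.2 in wild type. In clone D their range was 73.0 to 96.3, and in clone C8 91.3 to 97.5. These 4 had the highest wild-type enrichments of the common sites. The strongest clone C8 peak of the windows was at another site of chromosome 2 (85086595 to 85087204). Its enrichments were 60.01 in wild type, 30.55 in clone D and 69.8 in clone C8, at percentiles 89.5, 80.7 and 98.4.

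On chromosome 19 the strongest common site was at 12894727 to 12895462, with an enrichment of 75.33 in wild type, 65.04 in clone D and 62.01 in clone C8. It ranked 156 of 29769 in clone D, the best rank of any window peak in that list, with a −log10 p of 108.8. On chromosome 7 the site at 114189185 to 114189853 had 45.6, 46.93 and 47.88, at percentiles 79.2, 95.8 and 89.6. On distal chromosome 9 the site at 37740055 to 37740525 had 61.46, 23.05 and 29.71, at percentiles 90.1, 65.7 and 67.1. The single common site of proximal chromosome 9, at 20189515 to 20189998, lay 10.0 kb from the upper edge of the window and was weak in each list, with 17.41, 9.74 and 14.27.

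The 44 common sites had a median percentile of 65.6 in wild type, 56.1 in clone D and 58.0 in clone C8. The medians over all 23933 common sites of the series were 70.0, 59.4 and 62.3. Of the 44, 23 had a lower percentile in both clones than in wild type and 10 a higher one in both, against 12495 and 4805 of the 23933. The lists differ in length and in their number of weak peaks, so these percentiles are given side by side and no change is read from them.

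**Figure D5:**
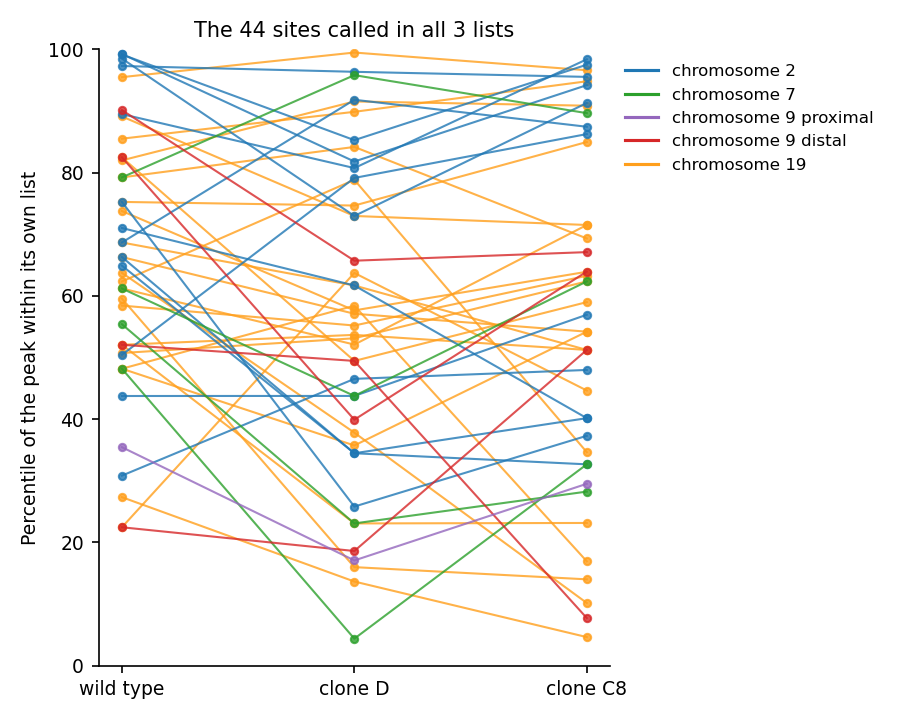
Percentile of each of the 44 common sites within the wild-type, clone D and clone C8 lists (vertical axis; 100 is the strongest peak of a list), with 1 line per site coloured by window. Lines of chromosome 2 (blue) and chromosome 19 (orange) include sites with percentiles of at least 95.5 in every list, and the single line of proximal chromosome 9 (purple) is highest in wild type, at 35.4.

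A −log10 p below 10 was held by 64 of the 71 peaks seen in wild type only (90.1%, against 92.8% of such peaks in the whole list), and 2 of the 71 were strong. Those 2 are 8.70% of the 23 strong wild-type peaks of the windows (1.07 to 28.0), where 0.232% of the strong peaks of the whole list, 32 of 13805, were absent from both clones. None of the 232 strong wild-type peaks of the flanks was absent from both clones. The choice to look at strong wild-type-only peaks here was made with the first of the 2 already known, so this share is a description.

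The stronger of them lay in the proximal window of chromosome 9 (19379799 to 19380040), the window with the fewest clone peaks. It was 242 bp wide, narrower than the wild-type median of 402 bp. The common region with the same wild-type enrichment (chromosome 2, 86304711 to 86305400) was 690 bp wide, joined over the lists. Within the list, its enrichment was 83.26 and its −log10 p 56.3, at percentile 97.3 of the wild-type list. The nearest peak was 754 kb away in clone D and 306 kb away in clone C8. No other peak of that window was strong in any list, and its next strongest wild-type peak had an enrichment of 23.79.

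The other strong wild-type-only peak lay on chromosome 2 (85859571 to 85860017), where it had 31.74 in column 7, a −log10 p of 24.7 and percentile 64.4. Clone D had no peak within 293 kb of it. Clone C8 had a weak peak 0.998 kb away (85858294 to 85858572), called in clone C8 only, whose enrichment was 7.75 and −log10 p 5.10.

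Next in strength came 8 wild-type-only peaks, whose enrichments ran from 15.86 to 23.79. At 15.86, 4 peaks were tied, and the 2 of them with the higher −log10 p are named. They lay on proximal chromosome 9 (18640871 to 18641190), on chromosome 7 (114360344 to 114360761 and 113902782 to 113903191), on distal chromosome 9 (39285664 to 39286191 and 37570138 to 37570514), on chromosome 2 (90212977 to 90213360) and on chromosome 19 (14077497 to 14078028 and 14158908 to 14159228). The one at 39285664 had the highest −log10 p of these, 15.9. The closest of the 8 to a clone peak was that at 14158908, with clone D and clone C8 peaks 3.29 and 3.39 kb away.

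No region absent from wild type was strong. The 3 regions that the clones shared and wild type lacked all lay on chromosome 19. The strongest (13893319 to 13893837) had enrichments of 15.64 (D) and 19.38 (C8), where the −log10 p was 12.2 and 12.0, at percentiles 43.8 and 44.6. That at 12899023 to 12899435 had 9.88 and 14.21, and that at 12117592 to 12118034 had 8.28 and 12.92. Wild-type peaks lay 5.60, 3.57 and 27.0 kb from them.

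The 3 strongest regions of clone D only had enrichments of 9.88 to 10.7. They lay on chromosome 19 (14119971 to 14120436) and distal chromosome 9 (40055190 to 40055501 and 37806251 to 37806624). Those of clone C8 only had enrichments of 10.34 to 14.21, with 4 regions tied at 10.34 of which the one with the highest −log10 p is named, and lay on distal chromosome 9 (37619212 to 37619417), chromosome 2 (86910896 to 86911162) and chromosome 7 (114804630 to 114805079). No region of 1 clone only had a −log10 p of 10 or more. Peaks found in neither other list made up 12.1% of the window peaks of clone D and 15.3% of those of clone C8, where the whole lists had 7.64% and 11.9%. Among strong peaks, 0 of 23 and 0 of 20 were such peaks in the windows, which the whole lists had at 0.00667% and 0.0479%.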

How the data were processed

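CTCF was measured by ChIP-seq in 3 libraries, each with 1 peak list. The submitters' processing notes name bcl2fastq 1.8.4, Bowtie 1.0.0 and build mm9, with no roles. For the peak caller and any role of the inputs, nothing is given in the sources used here. For each peak the authors deposited a fold enrichment (column 7, a ratio whose denominator is not stated). They deposited its p-value as −log10 p (column 8, lowest value 5) and its false discovery rate (FDR) as a fraction (column 9). The FDR is not a q-value of column 8, since it did not always fall as −log10 p rose. In clone D it was 0.0006 at a −log10 p of 40.6 and 0.0054 at 108.8. In wild type it was 0.0011 at 43.9 and 0.0056 at 83.1. How the FDR was computed before deposit is not stated.

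The windows, the strong peaks to describe and the lists were chosen with earlier results of these data known. A peak belonged to a window when wholly inside it. Regions are connected sets of peaks overlapping by at least 1 bp, and positions count from 1. A percentile is the percent of a list with a lower enrichment, ties counted by their mean rank. The interval of a density ratio is the exact binomial interval of the windows' share of window and flank peaks. Regions named are the 10 wild-type-only peaks with the highest enrichment, the strongest common site of each window, up to 8 regions of both clones and the 3 strongest of each clone only, ties in enrichment going to the higher −log10 p; other positions were chosen after their values were seen. The promoter motif was also chosen then: a looser form was searched first, with few receptor promoters matched, and is not used.

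Python 3.11.15, pandas 2.3.3, numpy 2.4.6 and SciPy 1.17.1 were used. On simulated data 2400 of 2400 regions fell into their true class, and 6 of 6 real overlap counts equalled those of bedtools 2.31.1.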

Additional observations from a re-analysis of the deposited data

How the results depend on the processing

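Shares and density ratios were held against their exact 95% interval and counts against a factor of 1.5. In 67 recomputed values, 40 were within these bounds and 27 were not. In every alternative run the windows had a lower density than the flanks. A −log10 p of at least 10 gave a wild-type density ratio of 0.246. The shares of wild-type window peaks found were 72.1% (clone D), 67.4% (clone C8) and 65.1% (both). There were 11 regions with a peak past the cut in wild type only. The clones shared 5 that had no wild-type peak past the cut. Lists shortened to 29769 peaks by column 7 gave 0.273, 73.8%, 70.5%, 65.6%, 13 and 5. Peaks with a rate of 0.05 or less in column 9 gave 0.237, 89.7%, 82.1%, 82.1%, 4 and 11. By construction these 3 settings remove weak peaks. The cut in column 9 was stricter for wild type, which kept 39 of its 122 window peaks. Clone D kept 52 of 58 there, while clone C8 kept 49 of 59. A wild-type peak with a −log10 p of 10.6 failed this cut (0.0571). Peaks at 6.19 for D (0.0322) and 6.71 for C8 (0.0445) passed it. The shares and counts of that setting thus compare a strict wild-type list with lenient clone lists. Without the chromosome 2 window there were 43 wild-type-only regions. This count had to fall, since that window held 28 of the 71. The density ratios and shares of that run stayed within their intervals. Without the chromosome 19 window (chosen after seeing the data) the density ratios were 0.170 in clone D and 0.159 in clone C8. The wild-type ratio, 0.360, stayed within its interval. The shares were then 29.2%, 28.1% and 24.7%, and 0 regions were shared by the clones without wild type. With each clone left out in turn, 10 to 12 regions of the other clone were absent from wild type, as a single list then had to hold them. A reciprocal overlap of 50%, extension by 500 bp, peak midpoints and half-length flanks moved none of the values. No paired analysis was possible because each group has 1 library and the labels give no replicate numbers. Depth is unknown and limits every count of weak sites.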
